A study of Mus musculus with 45 samples.

Results

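The 45 genes described here encode the proteins that load, start and run the DNA replication fork. They were chosen by symbol from a fixed list, and each matched 1 identifier among the 55385 genes of the deposited RNA-seq tables. The list holds the 6 subunits of the origin recognition complex (*Orc1* to *Orc6*), the licensing factors *Cdc6*, *Cdt1* and *Gmnn*, the 6 subunits of the MCM2-7 helicase, and 8 factors of helicase activation (*Cdc45*, *Gins1* to *Gins4*, *Mcm10*, *Dbf4* and *Wdhd1*). It also holds 4 subunits of polymerase alpha-primase, 7 of polymerases delta and epsilon, the 5 subunits of clamp loader RFC with the clamp *Pcna*, the 3 subunits of replication protein A, and *Fen1* with *Lig1*. The study asked what the ETS family transcription factor GABPA controls in mouse preimplantation embryos and in naive embryonic stem cells. All 18 RNA-seq libraries came from embryos or cells homozygous for the knock-in allele (genotype Gabpa-dTAG/dTAG), controls included, in which GABPA carries an FKBP-HA tag and is degraded when the compound dTAG13 is added. Control samples received the solvent DMSO.

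Embryos came from in vitro fertilization, with mothers of 7 to 8 weeks and fathers of 8 to 12 weeks from a knock-in line backcrossed to C57BL/6J. Late two-cell embryos were cultured with DMSO or 1 μM dTAG13 from 6 to 30 h post fertilization (3 and 3 libraries). Morulae were treated from the four-cell stage at 42 h (2 and 2 libraries). E4.5 ICM, the mixture of epiblast (EPI) and primitive endoderm (PrE) cells left after the trophectoderm (TE) was removed by immunosurgery, came from blastocysts treated from 84 to 100 h (2 and 2 libraries). 2iES cells are ES-E14 cells grown in 2i/LIF, from a picked clone carrying the tag, with DMSO or 0.5 μM dTAG13 for 24 h (2 and 2 libraries). The labels number the libraries but do not say which came from separate pools or cultures, so p-values measure the spread between these libraries, which may be technical. The remaining 27 samples of the series (chromatin assays) were not analysed here.

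DNA replication begins when the origin recognition complex, with CDC6 and CDT1, loads the MCM2-7 helicase onto DNA in an inactive form, while geminin (*Gmnn*) holds CDT1 back outside the loading window. The kinase CDC7 with its partner DBF4, and the factors CDC45 and GINS, then turn MCM2-7 into the active CMG helicase. Polymerase alpha-primase lays down primers, RFC loads the PCNA clamp, polymerases epsilon and delta extend the leading and lagging strands, replication protein A covers single strands, and FEN1 and LIG1 join the lagging-strand pieces. Cells of the cleaving embryo and naive stem cells divide quickly and spend much of their cycle in S phase. The RNA of an early embryo also holds transcripts inherited from the oocyte.

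Promoter windows (250 bases before to 50 after an annotated start, RefSeq, build GRCm38.p6) were found for 37 of the 45 members, in 46 windows. The table held none for *Gins1*, *Gins2*, *Gins4*, *Gmnn*, *Mcm4*, *Pole*, *Prim2* and *Rfc2*. GABPA and other ETS factors recognise a GGAA core, and the word CCGGAAG on either strand stood in windows of 16 of the 37 members (43.2%) and in 17 of the 46 windows (37.0%), against 2910 of 32851 windows in the whole table (8.86%). E2F factors, the classical regulators of S-phase genes, recognise words such as TTTCCCGC, TTTCGCGC, TTTGCCGC and TTTGGCGC. On either strand these stood in windows of 16 members and in 17 of their 46 windows (37.0%), against 744 of all 32851 windows (2.26%). An E2F word and CCGGAAG can share at most 1 letter at their ends, 7 members held both kinds and 12 held neither. The windows of the members named for the largest falls with dTAG13 that hold CCGGAAG are printed 5′ to 3′ on the gene's strand, with that word in capitals. *Rfc3* (chr5:151651159-151651458, minus strand) holds 2 copies, the first beginning 47 bases before the start, and *Orc3* (chr4:34614893-34615192, minus strand) holds 1, beginning 17 bases before it. In the *Rfc3* window 2 E2F words stand in lower case, and 1 in that of *Orc3*.
Rfc3: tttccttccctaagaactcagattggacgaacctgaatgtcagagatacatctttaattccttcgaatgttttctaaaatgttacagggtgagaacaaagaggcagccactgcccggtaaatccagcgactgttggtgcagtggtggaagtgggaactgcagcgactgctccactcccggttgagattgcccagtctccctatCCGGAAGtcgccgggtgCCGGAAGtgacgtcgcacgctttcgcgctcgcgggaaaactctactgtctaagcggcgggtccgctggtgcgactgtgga
Orc3: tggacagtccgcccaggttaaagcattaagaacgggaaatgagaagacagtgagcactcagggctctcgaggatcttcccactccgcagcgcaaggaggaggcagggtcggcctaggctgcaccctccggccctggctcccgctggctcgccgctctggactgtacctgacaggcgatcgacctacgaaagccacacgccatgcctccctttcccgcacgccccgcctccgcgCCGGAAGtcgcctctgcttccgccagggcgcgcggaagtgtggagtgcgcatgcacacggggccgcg
A match of letters is a description of the window and not a measured binding site. *Mcm3*, another member with a large fall, held 2 E2F words and no CCGGAAG.

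Among members with the ETS word, 4 of 16 fell at the late two-cell stage, 12 in ICM and 9 in 2iES cells. Of the 21 members whose windows lacked it, 2, 17 and 18 fell. Over all genes tested, 7.24%, 38.5% and 28.1% were lower at these stages. The median log2 fold changes were -0.31, -0.58 and -0.47 with the word and -0.18, -0.51 and -0.70 without it. Of the 4 members that passed as lower at none of these stages, *Gins3*, *Mcm10* and *Wdhd1* held the word and *Orc6* did not. *Orc4*, which also held it, was lower in late two-cell embryos but higher in ICM and 2iES cells. In ICM 4 of the 16 members with the word passed as higher, and 3 of the 21 without it. Within the clamp loader the word stood in the windows of *Rfc3*, *Rfc4* and *Rfc5* and not in that of *Rfc1*.

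The expected counts of a library sum to between 9457933 and 27660132, with the 4 morula libraries the shallowest (9457933 to 12382705). *Gabpa* itself, whose protein and not RNA is the target of dTAG13, did not fall in any treated group and so checks no label. Late two-cell libraries held 111, 125 and 90.9 FPKM with DMSO and 170.1, 153 and 163 FPKM with dTAG13, followed by 8.79 and 10.2 FPKM with DMSO and 16.6 and 15.9 FPKM with dTAG13 in morulae, 11.0 and 12.0 FPKM with DMSO and 30.4 and 29.9 FPKM with dTAG13 in ICM and 8.67 and 7.05 FPKM with DMSO and 14.7 and 14.5 FPKM with dTAG13 in 2iES cells. The treated libraries were higher at each stage, and the difference passed the test at the late two-cell stage (log2 fold change 0.52 ± 0.11 (SE), adjusted p = 0.0124), in ICM (log2 fold change 0.95 ± 0.052 (SE), adjusted p = 7.77e-19) and in 2iES cells (log2 fold change 0.93 ± 0.13 (SE), adjusted p = 0.00136). The late two-cell and PrE markers followed the labels in the controls. The 5 late two-cell markers summed to 142 to 355 FPKM in late two-cell DMSO libraries and to at most 27.7 FPKM in those of any later group, and the 6 PrE markers to 256 to 260.3 FPKM in ICM and at most 0.66 FPKM in 2iES DMSO libraries. The TE markers did not separate these 2 in that way, at 134 and 165 FPKM in 2iES DMSO libraries against 76.1 and 80.8 FPKM in those of ICM. Some marker sums moved with the treatment. The 8 oocyte markers summed to 2049 to 2139 FPKM in late two-cell DMSO libraries and to 2547 to 2844 FPKM with dTAG13, but only 1 of the 8 passed as higher. In 2iES cells the 8 EPI markers went from 533 to 653 FPKM down to 381 to 417 FPKM, and 4 of the 8 passed as lower. In ICM the 9 TE markers (such as *Cdx2*, *Gata3* and *Krt8*) summed to 76.1 and 80.8 FPKM with DMSO and to 858 and 863 FPKM with dTAG13, all 9 higher and none at 0, and the EPI markers went from 760 and 768 to 385 and 395 FPKM, all 8 lower. The 6 PrE markers summed to 339 and 342 FPKM with dTAG13, but they moved in both directions, with 3 higher, 2 lower and none called at 2-fold. The part of these cells and markers in the changes of the replication genes was not tested, and in such bulk samples fewer cells of a type and less RNA per cell cannot be told apart. The 2 ICM libraries of a group also differed from each other by little more than sampling noise, with a variance 1.63 (DMSO) and 1.69 (dTAG13) times that of sampling against 2.84 to 16.3 times at the other stages, so that small changes passed the test in ICM more readily than elsewhere.

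Treatment lowered replication genes in late two-cell embryos, in ICM and in 2iES cells, with the largest fall in the clamp loader each time, in *Rfc3*, *Rfc2* and *Rfc3* respectively. In 2iES cells *Rfc3* fell 13.0-fold and *Rfc2* 10.2-fold, while *Rfc1*, the large subunit of the same loader, held 132 ± 2.53 (SD, n = 2) FPKM with DMSO and 125 ± 1.56 (SD, n = 2) FPKM with dTAG13. The test was edgeR's quasi-likelihood test on expected counts, with Benjamini-Hochberg adjustment across every gene of the stage that was tested, and a member passed at an adjusted p under 0.05. All 45 members were tested at every stage. In late two-cell embryos 8 of 45 passed as lower and none as higher, where 7.24% of 17421 genes were lower and 1.32% higher. The 8 were *Orc2*, *Orc3*, *Orc4*, *Mcm3*, *Gins4*, *Prim2*, *Rfc3* and *Rfc5*. At an unadjusted p under 0.05, 19 members were lower and 0 higher, and of all 17421 genes 2324 were lower and 1382 higher. DESeq2 gave 14 lower and 0 higher members, and the percentages above are not those of DESeq2. In ICM 37 of 45 were lower and 7 higher, against 38.5% and 38.4% of 15840 genes. In 2iES cells 33 were lower and 1 higher, against 28.1% and 26.5% of 15511 genes. In morulae no member passed in either direction, where 0.205% of 13667 genes were lower and 0.161% higher. There, 7 members were lower and 3 higher at an unadjusted p under 0.05, where 944 of the 13667 genes were lower and 910 higher. The share of members higher by that rule was near the share of all genes. By DESeq2 1 member was lower and 0 higher.

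The median log2 fold change of the 45 members was -0.23 at the late two-cell stage, -0.02 in morulae, -0.62 in ICM and -0.70 in 2iES cells. Over all genes tested the medians were 0.02, -0.02, 0.01 and 0.03. When a change also had to reach 2-fold, with a group mean of 1 FPKM or more, there remained 3 members lower at the late two-cell stage (background 3.63%), 16 in ICM (13.2%) and 18 in 2iES cells (15.6%). None was higher under that rule at these stages, where 0.476%, 12.1% and 12.4% of genes were. As shares of the 45, the members called lower came to 17.8%, 82.2% and 73.3% at the late two-cell stage, in ICM and in 2iES cells, and those lower by at least 2-fold to 6.67%, 35.6% and 40.0%. Each of these shares lay above its background.

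**Figure D1:**
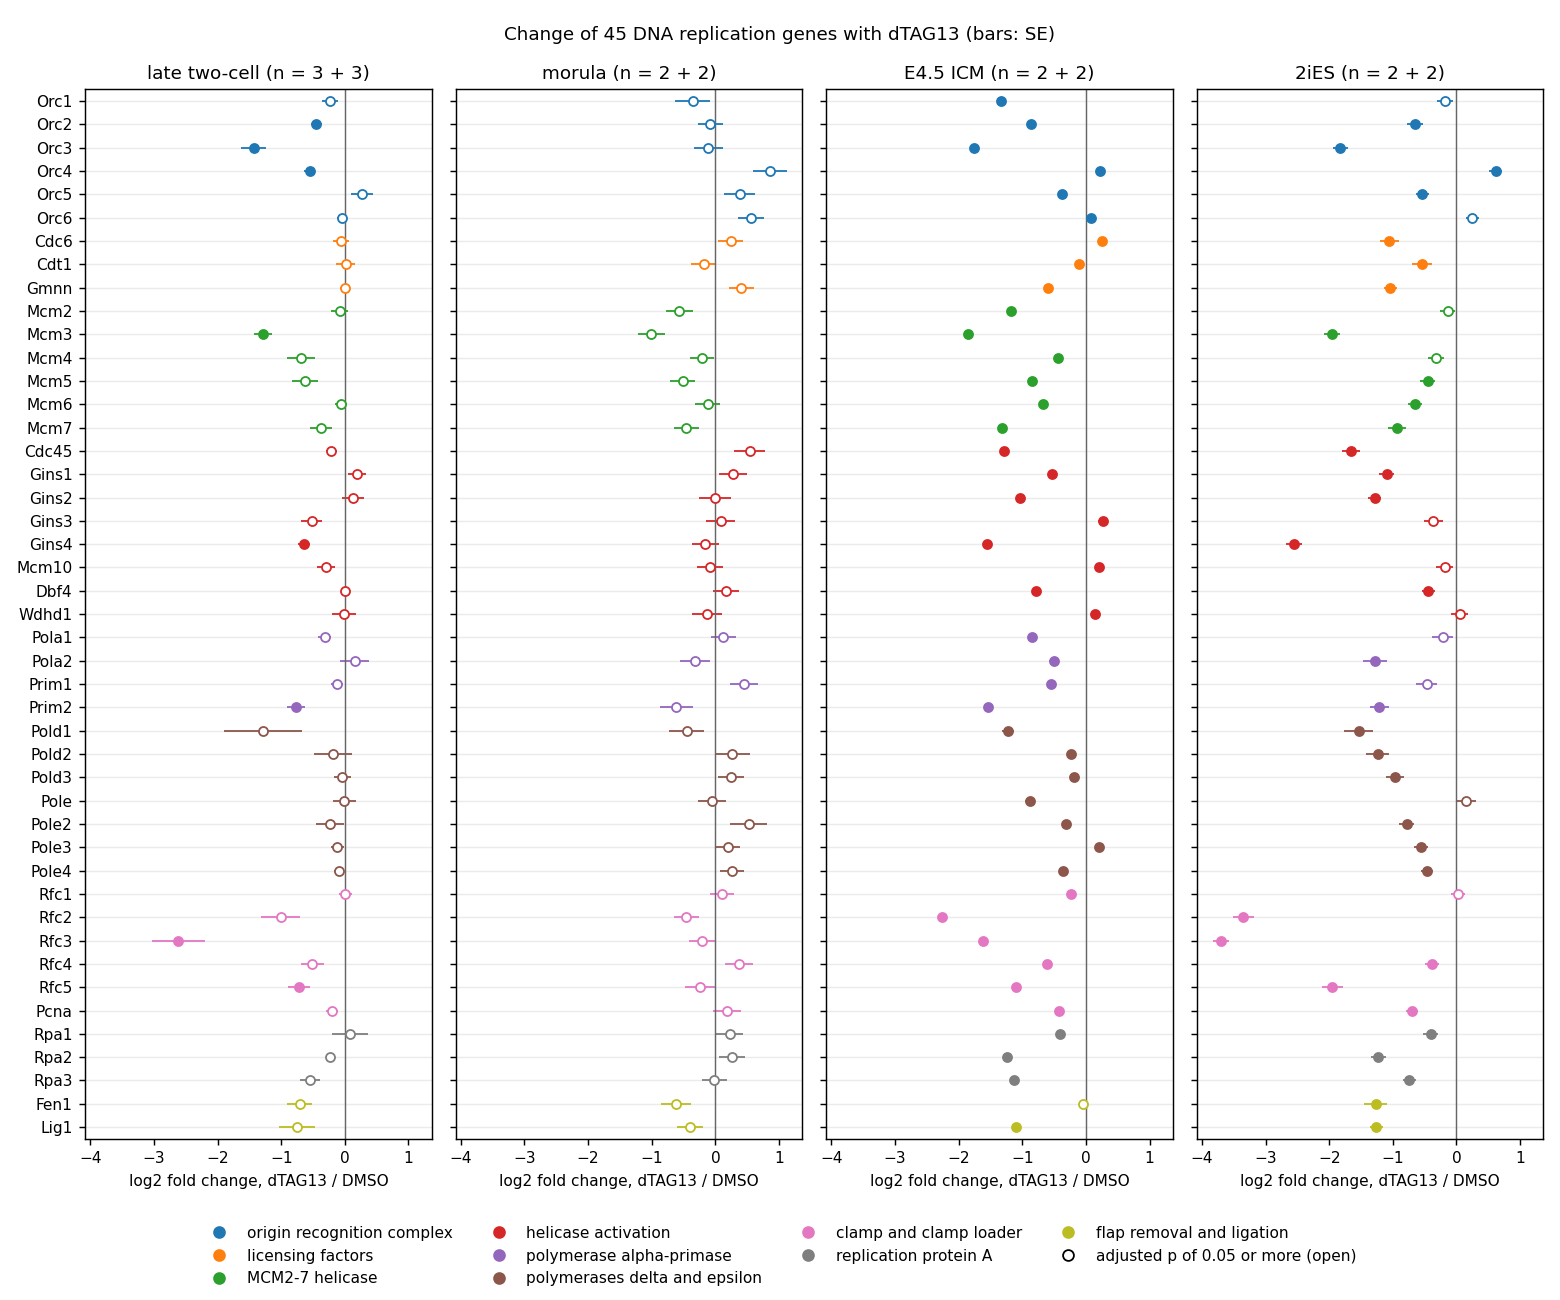
Log2 fold change of each of the 45 members with dTAG13 against DMSO (x axis) at 4 stages (panels), ordered and coloured by role; bars are SE and filled points passed the test. *Rfc3* and *Rfc2* lie farthest to the left in 2iES cells, most ICM and 2iES points lie below 0, and no morula point is filled.

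The 7 genes *Gins4*, *Mcm3*, *Orc2*, *Orc3*, *Prim2*, *Rfc3* and *Rfc5* passed as lower in late two-cell embryos, ICM and 2iES cells, or 15.6% of the members against 6.38% of the 12329 genes tested at all 3. A further 23 were lower at 2 of these stages, all of them in ICM and 2iES cells, 11 at 1 of them, and 4 (*Gins3*, *Mcm10*, *Orc6* and *Wdhd1*) at none. Between ICM and 2iES cells, 30 members (66.7%) fell in both, against 22.0% of the 13842 genes tested in both. For a fall in ICM and not in 2iES cells the shares were 15.6% of members and 18.9% of genes, and for the reverse 6.67% and 8.11%, both near the background. *Mcm2*, *Mcm4*, *Orc1*, *Pola1*, *Pole*, *Prim1* and *Rfc1* passed as lower in ICM and not in 2iES cells, and *Cdc6*, *Fen1* and *Pole3* in 2iES cells and not in ICM. In 2iES cells the falls of *Rpa1*, *Dbf4*, *Mcm5*, *Cdt1*, *Rfc4*, *Pole3*, *Orc5* and *Pole4* were lost without dTAG13 replicate 1 and again without dTAG13 replicate 2, and that of *Orc2* without dTAG13 replicate 2. By role, the median log2 fold changes in ICM and 2iES cells were -0.62 and -0.36 for the origin recognition complex, -0.11 and -1.04 for the licensing factors, -1.02 and -0.55 for MCM2-7, and -0.66 and -0.77 for helicase activation. They were -0.70 and -0.84 for polymerase alpha-primase, -0.31 and -0.79 for polymerases delta and epsilon, -0.86 and -1.33 for the clamp and its loader, and -1.13 and -0.74 for replication protein A.

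In DMSO libraries all 45 members had a mean of at least 1 FPKM at every stage. FPKM is per length, so it also ranks the genes within a library. At the late two-cell stage the mean levels ran from 1.98 FPKM (*Pold1*) to 1283 FPKM (*Gmnn*), with a median of 35.3 FPKM. The medians were 41.5 FPKM in morulae, 79.7 FPKM in ICM and 57.0 FPKM in 2iES cells, where the highest were *Gmnn*, *Pcna* and *Rpa3*. In 1 fit of the 9 DMSO libraries, with a call at an adjusted p under 0.05 and at least 2-fold, 13 members were lower and 13 higher in morulae than at the late two-cell stage. The background was 33.6% of 19830 genes lower and 26.7% higher, and the median of all genes lay at -0.28 on the log2 scale. Both shares of the 45 (28.9%) were close to the background. *Gmnn*, 4 of the 6 origin recognition subunits and *Dbf4* were among those that fell, and 4 of the 6 helicase subunits (*Mcm2* to *Mcm5*) among those that rose. *Cdc45* showed the steepest drop (log2 fold change -3.54 ± 0.21 (SE), adjusted p = 2.27e-08), from 212 ± 14.3 (SD, n = 3) to 18.6 ± 5.20 (SD, n = 2) FPKM. *Dbf4* (-2.77), *Orc1* (-2.56), *Orc6* (-2.49), *Pole4* (-1.88) and *Gmnn* (-1.87) also fell on the log2 scale. *Pold1*, the catalytic subunit of polymerase delta, rose the most (log2 fold change 4.06 ± 0.27 (SE), adjusted p = 6.54e-08), from 1.98 ± 0.507 (SD, n = 3) to 33.9 ± 7.36 (SD, n = 2) FPKM, followed by *Lig1* (2.98), *Mcm5* (2.81), *Rfc4* (2.30) and *Rfc2* (2.29).

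From morula to ICM no member fell by this rule (17.0% of genes did) and 16 rose, or 35.6% of the 45 against 18.7% of all genes. With upper-quartile factors 10 of these 16 calls were kept. At an unadjusted p under 0.05, with no fold limit, 4 members were lower, where 4833 of the 19830 genes were. DESeq2 also made 0 lower calls. The largest rises were those of *Rfc5* (log2 fold change 2.49 ± 0.26 (SE), adjusted p = 1.06e-05), *Gins2* (log2 fold change 2.33 ± 0.15 (SE), adjusted p = 2.94e-07) and *Pold2* (log2 fold change 1.96 ± 0.28 (SE), adjusted p = 0.000124). Between ICM and 2iES cells 2 members, *Mcm2* and *Fen1*, were lower in 2iES cells (16.5% of genes were) and 10 were higher (15.6%), led by *Rpa3* (log2 fold change 2.27 ± 0.17 (SE), adjusted p = 1.33e-06) and *Orc6* (log2 fold change 1.93 ± 0.16 (SE), adjusted p = 3.16e-06). With library totals in place of TMM scaling, which moved the median of all genes to -0.33, that split was 6 lower and 3 higher. Stage and library preparation cannot be told apart in these contrasts.

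**Figure D2:**
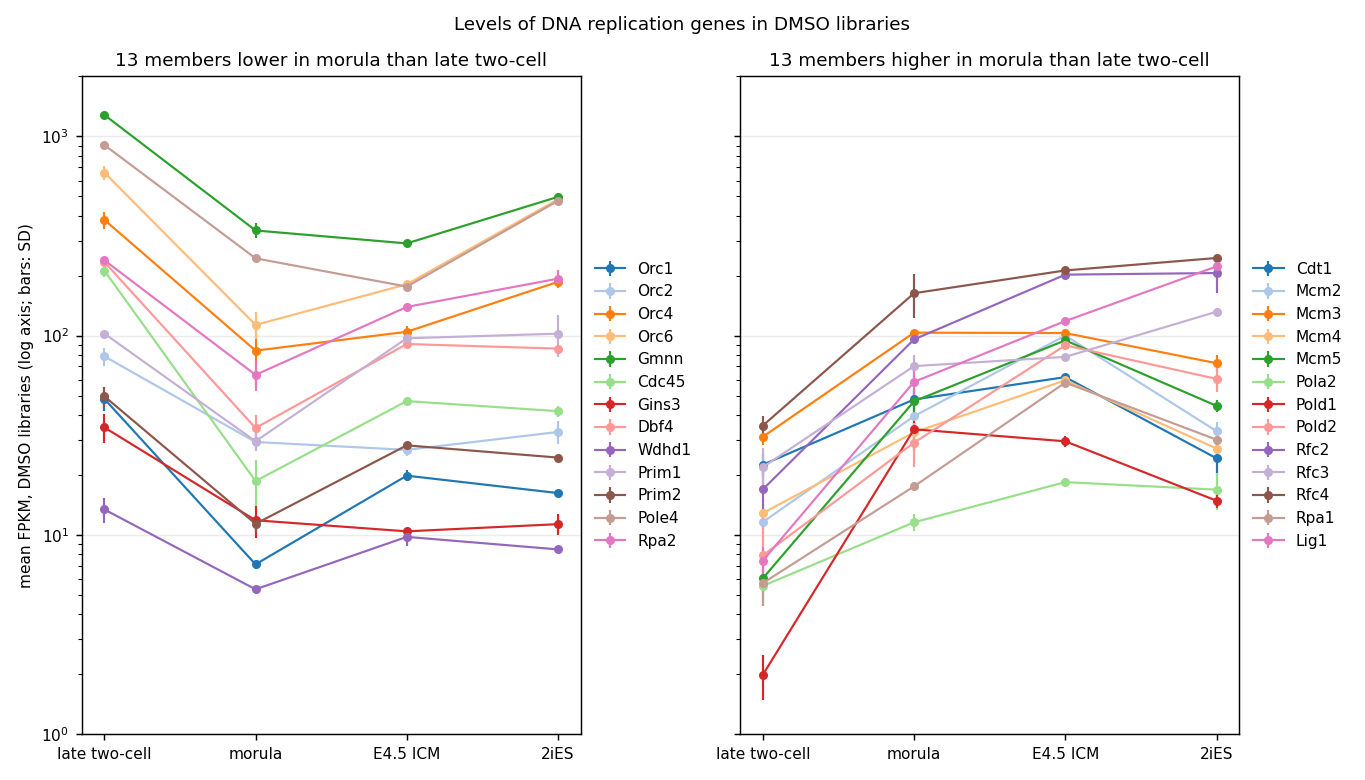
Mean FPKM of DMSO libraries (log y axis, bars are SD) by stage (x axis) for the 13 members that were lower (left) and the 13 that were higher (right) in morulae than at the late two-cell stage. *Gmnn* starts at 1283 FPKM and *Pold1* at 1.98 FPKM, and in morulae they stand at 337 and 33.9 FPKM.

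In the paragraphs on single roles and pathways, a value given alone in parentheses is a log2 fold change with dTAG13. Within the origin recognition complex, *Orc3* fell wherever any member did and *Orc4* changed direction between stages. *Orc3* lies on chromosome 4 from 34570796 to 34614944 and *Orc4* on chromosome 2 from 48902824 to 48950277 (GRCm38, GENCODE M21, the whole gene). Late two-cell libraries of *Orc3* held 14.3, 11.4 and 18.9 FPKM with DMSO and 5.38, 7.39 and 5.53 FPKM with dTAG13. The groups did not overlap (log2 fold change -1.44 ± 0.20 (SE), adjusted p = 0.00104). In ICM the values were 54.2 and 54.2 FPKM with DMSO and 17.4 and 18.7 FPKM with dTAG13 (log2 fold change -1.75 ± 0.055 (SE), adjusted p = 1.38e-26), and in 2iES cells 43.7 and 44.9 FPKM with DMSO and 13.8 and 13.9 FPKM with dTAG13 (log2 fold change -1.82 ± 0.12 (SE), adjusted p = 9.13e-05). Every treated library lay below every control at these stages. In morulae *Orc3* held 17.8 and 23.2 FPKM with DMSO and 21.7 and 17.3 FPKM with dTAG13 (adjusted p = 0.873), and the groups overlapped.

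*Orc4* at the late two-cell stage held 343, 385 and 416 FPKM with DMSO and 291, 259 and 302 FPKM with dTAG13, with every treated library below every control (log2 fold change -0.55 ± 0.090 (SE), adjusted p = 0.00282). It was higher with dTAG13 in ICM, where the libraries held 109 and 99.8 FPKM with DMSO and 123 and 111 FPKM with dTAG13 (log2 fold change 0.22 ± 0.038 (SE), adjusted p = 3.36e-06), and in 2iES cells, where they held 194 and 178 FPKM with DMSO and 299 and 323 FPKM with dTAG13 (log2 fold change 0.62 ± 0.10 (SE), adjusted p = 0.00247). It was the only member to pass as higher in 2iES cells, and that call was lost without dTAG13 replicate 2, when 0 members passed as higher. The morula libraries, at 64.7 and 103 FPKM with DMSO and 165 and 158 FPKM with dTAG13, did not overlap, but the difference missed the threshold (log2 fold change 0.85, adjusted p = 0.204). *Orc2* fell at the late two-cell stage (log2 fold change -0.45 ± 0.090 (SE), adjusted p = 0.0104, lost without DMSO replicate 1 or dTAG13 replicate 1), in ICM (-0.86) and in 2iES cells (-0.66). Of the 75-base stretches of its transcripts, 25.1% also occur in *Nif3l1* on the opposite strand, and the library kit does not keep strand. *Nif3l1* fell as well in ICM (log2 fold change -1.16, adjusted p = 1.34e-21) and in 2iES cells (-2.05, adjusted p = 9.29e-05), so part of the *Orc2* counts cannot be told apart from it. *Orc5* fell modestly in ICM (-0.37) and 2iES cells (-0.54). *Orc6* was at 0.08 in ICM (adjusted p = 0.0219, lost when either DMSO library or dTAG13 replicate 2 was left out) and at 0.25 in 2iES cells (adjusted p = 0.0662). *Orc1*, an ATP-binding subunit that leaves the complex after S phase, went from 19.8 ± 1.22 (SD, n = 2) to 10.4 ± 0.622 (SD, n = 2) FPKM in ICM (log2 fold change -1.33 ± 0.069 (SE), adjusted p = 1.82e-19). In 2iES cells it held 16.2 ± 0.0141 (SD, n = 2) and 17.6 ± 0.219 (SD, n = 2) FPKM (log2 fold change -0.18, adjusted p = 0.259). The complex as a whole counted 3 of 6 subunits lower at the late two-cell stage, 4 lower and 2 higher in ICM, and 3 lower and 1 higher in 2iES cells.

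Of the licensing factors, none passed at the late two-cell stage, where geminin RNA was the most abundant of all members (1283 ± 37.7 (SD, n = 3) FPKM with DMSO and 1347 ± 65.9 (SD, n = 3) FPKM with dTAG13). *Gmnn* fell in ICM (294 and 286 FPKM with DMSO and 202 and 197 FPKM with dTAG13; log2 fold change -0.60 ± 0.032 (SE), adjusted p = 5.33e-19) and in 2iES cells (513 and 482 FPKM with DMSO and 244 and 250.1 FPKM with dTAG13; log2 fold change -1.04 ± 0.10 (SE), adjusted p = 0.000285). *Cdc6*, on chromosome 11 from 98907801 to 98923940, encodes the loader ATPase that brings the helicase to the origin complex. Its ICM libraries held 30.8 and 32.0 FPKM with DMSO and 40.3 and 37.4 FPKM with dTAG13, all treated values above the controls (log2 fold change 0.25 ± 0.046 (SE), adjusted p = 5.73e-06). In 2iES cells they held 15.5 and 13.8 FPKM with DMSO and 6.64 and 7.40 FPKM with dTAG13, with the order turned around (log2 fold change -1.06 ± 0.15 (SE), adjusted p = 0.00155). *Cdt1*, the other loader, fell in 2iES cells (-0.54). In ICM its counts gave -0.11 (adjusted p = 0.00910, lost without DMSO replicate 2) while its FPKM overlapped at 60.7 and 63.0 FPKM with DMSO and 64.3 and 62.4 FPKM with dTAG13, and the sign turned to 0.016 with limma on log2(TPM + 1).

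The 6 helicase subunits did not move as a unit. *Mcm3*, on chromosome 1 from 20802968 to 20820312, fell by far the most. Late two-cell libraries held 32.6, 27.9 and 32.6 FPKM with DMSO and 11.8, 11.8 and 14.0 FPKM with dTAG13 (log2 fold change -1.28 ± 0.14 (SE), adjusted p = 0.000233). ICM libraries held 105 and 101 FPKM with DMSO and 31.5 and 32.5 FPKM with dTAG13 (log2 fold change -1.86 ± 0.043 (SE), adjusted p = 7.73e-31) and those of 2iES cells 67.9 and 77.5 FPKM with DMSO and 21.7 and 25.7 FPKM with dTAG13 (log2 fold change -1.95 ± 0.12 (SE), adjusted p = 7.67e-05). No treated library reached a control library at any of these stages. The morula values, 101 and 106 FPKM with DMSO and 41.5 and 48.4 FPKM with dTAG13, did not overlap either, and the adjusted p of 0.0557 missed the threshold at a log2 fold change of -1.01. *Mcm3* was the only subunit that passed at the late two-cell stage. There *Mcm4* (-0.69, adjusted p = 0.0877) and *Mcm5* (-0.63, adjusted p = 0.0941) missed the threshold, and *Mcm6* held 82.0 ± 3.79 (SD, n = 3) FPKM with DMSO and 82.4 ± 3.84 (SD, n = 3) FPKM with dTAG13.

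In ICM all 6 subunits fell, from -0.44 (*Mcm4*) to -1.86 (*Mcm3*). *Mcm2*, which binds histones as well as its ring neighbours, went from 100.0 ± 0.926 (SD, n = 2) to 46.0 ± 1.00 (SD, n = 2) FPKM (log2 fold change -1.18 ± 0.031 (SE), adjusted p = 8.27e-29), and *Mcm7* from 114 ± 2.73 (SD, n = 2) to 48.5 ± 0.318 (SD, n = 2) FPKM (log2 fold change -1.31 ± 0.036 (SE), adjusted p = 2.49e-28). In 2iES cells 4 of the 6 fell (*Mcm3*, *Mcm5*, *Mcm6* and *Mcm7*). *Mcm2* held 30.5 and 35.8 FPKM with DMSO and 32.2 and 29.6 FPKM with dTAG13, which overlapped (-0.14, adjusted p = 0.369), and *Mcm4* was at -0.32 (adjusted p = 0.0670). The counts of *Mcm7* in 2iES cells gave -0.94 but its FPKM gave a log2 ratio of only -0.18 (76.0 and 63.9 FPKM with DMSO and 61.3 and 61.9 FPKM with dTAG13) at mean effective lengths from RSEM of 2035 bases in the controls and 1248 bases in the treated libraries.

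Among the 8 factors of helicase activation, *Gins4* had the largest fall. It lies on chromosome 8 from 23226616 to 23237659 and encodes a subunit of the 4-part GINS ring. Its late two-cell libraries held 119, 112 and 106 FPKM with DMSO and 77.2, 76.6 and 74.2 FPKM with dTAG13 (log2 fold change -0.64 ± 0.10 (SE), adjusted p = 0.00181), in ICM 143 and 152 FPKM with DMSO and 53.7 and 51.2 FPKM with dTAG13 (log2 fold change -1.55 ± 0.042 (SE), adjusted p = 2.17e-28) and in 2iES cells 258 and 219 FPKM with DMSO and 41.4 and 41.9 FPKM with dTAG13 (log2 fold change -2.55 ± 0.13 (SE), adjusted p = 3.51e-05). Its partners did not follow it together. *Gins1* fell in ICM (-0.54) and 2iES cells (-1.10), and *Gins2* in ICM (172 and 181 FPKM with DMSO and 85.1 and 73.4 FPKM with dTAG13; log2 fold change -1.04 ± 0.043 (SE), adjusted p = 1.04e-22) and 2iES cells (345 and 315 FPKM with DMSO and 118 and 119 FPKM with dTAG13; log2 fold change -1.29 ± 0.10 (SE), adjusted p = 0.000137). Of the 75-base stretches of *Gins2* transcripts, 64.7% also occur in *Gse1* on the opposite strand, whose mean level was at most 0.913 FPKM at the late two-cell stage, in ICM and in 2iES cells. *Gins3*, on chromosome 8 from 95633453 to 95645060, held 10.1 and 10.7 FPKM with DMSO and 13.9 and 13.9 FPKM with dTAG13 in ICM, where it was the member with the largest rise (log2 fold change 0.26 ± 0.078 (SE), adjusted p = 0.00281). In late two-cell embryos and 2iES cells it was at -0.52 (adjusted p = 0.0891) and -0.36 (adjusted p = 0.0717).

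*Cdc45*, which completes the CMG helicase, fell in ICM from 46.9 ± 0.113 (SD, n = 2) to 20.8 ± 2.55 (SD, n = 2) FPKM (log2 fold change -1.29 ± 0.059 (SE), adjusted p = 3.07e-21) and in 2iES cells from 41.7 ± 2.76 (SD, n = 2) to 13.4 ± 1.26 (SD, n = 2) FPKM (log2 fold change -1.66 ± 0.14 (SE), adjusted p = 0.000186), and at the late two-cell stage it was at -0.21 (adjusted p = 0.209). *Dbf4* fell in ICM (-0.79) and 2iES cells (-0.44). *Mcm10* and *Wdhd1*, which tie the helicase to polymerase alpha, passed as slightly higher in ICM (0.20 and 0.14), the second with an adjusted p of 0.0393 that was lost when either DMSO library or dTAG13 replicate 2 was left out. In 2iES cells *Mcm10* counts gave -0.19 (adjusted p = 0.265) while its FPKM was higher with dTAG13 (25.3 and 28.4 FPKM with DMSO and 41.0 and 44.4 FPKM with dTAG13) at mean effective lengths of 1523 and 864 bases. Each of the 7 higher calls in ICM was within 0.26 on the log2 scale. None of them passed in a fit that shared its spread over all 18 libraries, in which 27 members were lower, and 4 passed as higher by DESeq2.

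Polymerase alpha-primase has a catalytic and an accessory polymerase subunit and 2 primase subunits. *Prim2*, the large primase subunit, fell at the late two-cell stage (44.2, 55.9 and 48.5 FPKM with DMSO and 30.4, 27.2 and 34.6 FPKM with dTAG13; log2 fold change -0.77 ± 0.14 (SE), adjusted p = 0.00496), in ICM (28.7 and 27.6 FPKM with DMSO and 9.82 and 10.2 FPKM with dTAG13; log2 fold change -1.54 ± 0.071 (SE), adjusted p = 4.41e-21) and in 2iES cells (24.7 and 24.1 FPKM with DMSO and 11.5 and 10.0 FPKM with dTAG13; log2 fold change -1.21 ± 0.14 (SE), adjusted p = 0.000704). The groups did not overlap at any of these stages. *Prim1*, the catalytic primase, fell in ICM (-0.55), and in 2iES cells its adjusted p of 0.0503 missed the threshold at -0.47. *Pola2* fell in ICM (-0.51) and in 2iES cells (log2 fold change -1.27 ± 0.19 (SE), adjusted p = 0.00170). *Pola1*, the catalytic subunit, fell in ICM by counts (log2 fold change -0.84 ± 0.050 (SE), adjusted p = 1.22e-17), but its FPKM overlapped at 24.4 and 27.1 FPKM with DMSO and 27.6 and 24.2 FPKM with dTAG13, with mean effective lengths of 3335 bases with DMSO and 1932 bases with dTAG13. In 2iES cells it was at -0.21 (adjusted p = 0.300).

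None of the 7 subunits of polymerases delta and epsilon passed at the late two-cell stage. *Pold1* had the largest change there, at 2.38, 1.41 and 2.15 FPKM with DMSO and 0.590, 0.580 and 1.82 FPKM with dTAG13 (log2 fold change -1.29, adjusted p = 0.266), and its groups overlapped. In ICM *Pold1* fell from 29.5 ± 1.81 (SD, n = 2) to 10.6 ± 0.983 (SD, n = 2) FPKM (log2 fold change -1.23 ± 0.088 (SE), adjusted p = 2.84e-15) and in 2iES cells from 14.8 ± 1.25 (SD, n = 2) to 6.64 ± 0.919 (SD, n = 2) FPKM (log2 fold change -1.54 ± 0.23 (SE), adjusted p = 0.00175). The accessory subunits of polymerase delta also fell, in ICM at -0.24 (*Pold2*) and -0.18 (*Pold3*) and in 2iES cells at -1.24 and -0.96. For *Pold3* in ICM the sign turned to 0.046 with limma on log2(TPM + 1). *Pole*, the leading-strand polymerase, fell in ICM (26.5 and 28.9 FPKM with DMSO and 18.9 and 17.3 FPKM with dTAG13; log2 fold change -0.88 ± 0.075 (SE), adjusted p = 2.81e-13) and held 25.5 and 23.7 FPKM with DMSO and 27.4 and 32.0 FPKM with dTAG13 in 2iES cells (0.16, adjusted p = 0.416). *Pole2* and *Pole4* fell in both. *Pole3*, which with *Pole4* forms a histone-binding pair, was higher in ICM (66.1 and 66.9 FPKM with DMSO and 82.2 and 85.0 FPKM with dTAG13; log2 fold change 0.20 ± 0.039 (SE), adjusted p = 2.05e-05) and lower in 2iES cells (58.2 and 54.8 FPKM with DMSO and 40.9 and 43.3 FPKM with dTAG13; log2 fold change -0.56 ± 0.11 (SE), adjusted p = 0.00611).

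The clamp loader held both the largest falls and a subunit that hardly moved. RFC is a ring of 1 large subunit, RFC1, and the small subunits RFC2 to RFC5, which are shared with the alternative loaders built on CHTF18, ATAD5 and RAD17. *Rfc3* lies on chromosome 5 from 151642756 to 151651242. Its late two-cell libraries held 27.5, 16.7 and 21.4 FPKM with DMSO and 1.57, 7.44 and 3.01 FPKM with dTAG13, the largest fall of any member at that stage (log2 fold change -2.62 ± 0.42 (SE), adjusted p = 0.00251). In ICM they held 78.9 and 77.4 FPKM with DMSO and 26.4 and 25.4 FPKM with dTAG13 (log2 fold change -1.62 ± 0.058 (SE), adjusted p = 1.53e-24) and in 2iES cells 134 and 129.7 FPKM with DMSO and 9.89 and 10.2 FPKM with dTAG13 (log2 fold change -3.70 ± 0.13 (SE), adjusted p = 1.88e-05). The treated libraries lay below the controls at all 3 stages, and in 2iES cells by more than 10-fold. In morulae they held 63.2 and 77.3 FPKM with DMSO and 49.9 and 47.4 FPKM with dTAG13, which did not overlap, at -0.21 by counts (adjusted p = 0.710).

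*Rfc2*, on the same chromosome from 134581366 to 134601805, had the largest fall of any member in ICM, with 198 and 206 FPKM with DMSO and 40.2 and 47.9 FPKM with dTAG13 (log2 fold change -2.26 ± 0.044 (SE), adjusted p = 4.40e-33). In 2iES cells it held 236 and 176 FPKM with DMSO and 20.3 and 19.0 FPKM with dTAG13 (log2 fold change -3.35 ± 0.17 (SE), adjusted p = 3.42e-05). At the late two-cell stage it held 15.8, 11.5 and 23.3 FPKM with DMSO and 8.77, 5.62 and 9.00 FPKM with dTAG13, without overlap, and missed the threshold at -1.01 (adjusted p = 0.0747), and in morulae it held 95.7 and 95.6 FPKM with DMSO and 63.4 and 64.6 FPKM with dTAG13 (-0.46, adjusted p = 0.346). *Rfc5* fell in ICM (140.0 and 126 FPKM with DMSO and 54.6 and 68.6 FPKM with dTAG13; log2 fold change -1.11 ± 0.032 (SE), adjusted p = 1.88e-27) and 2iES cells (176 and 125 FPKM with DMSO and 48.0 and 40.2 FPKM with dTAG13; log2 fold change -1.95 ± 0.16 (SE), adjusted p = 0.000178), and its fall at the late two-cell stage (log2 fold change -0.72 ± 0.17 (SE), adjusted p = 0.0258) was lost in 5 of the 6 fits that left out 1 library, all but that without DMSO replicate 2. *Rfc4* fell less (log2 fold change -0.62 in ICM and -0.39 in 2iES cells), and 12.7% of its exonic bases lie opposite *Eif4a2*, which was higher in 2iES cells (log2 fold change 1.06). *Rfc1* was at 0.01, -0.24 and 0.02 at the late two-cell stage, in ICM and in 2iES cells, and passed only in ICM, where its FPKM overlapped (72.8 and 68.4 FPKM with DMSO and 68.9 and 64.5 FPKM with dTAG13). In 2iES controls the mean of *Rfc2* (206 FPKM) and *Rfc3* (132 FPKM) stood above or level with that of *Rfc1* (132 FPKM), and in treated cells both (19.7 and 10.1 FPKM) stood below it (125 FPKM). *Pcna* fell in ICM (297 and 297 FPKM with DMSO and 232 and 226 FPKM with dTAG13; log2 fold change -0.42 ± 0.027 (SE), adjusted p = 2.38e-16) and 2iES cells (376 and 405 FPKM with DMSO and 246 and 248 FPKM with dTAG13; log2 fold change -0.70 ± 0.093 (SE), adjusted p = 0.00106).

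**Figure D3:**
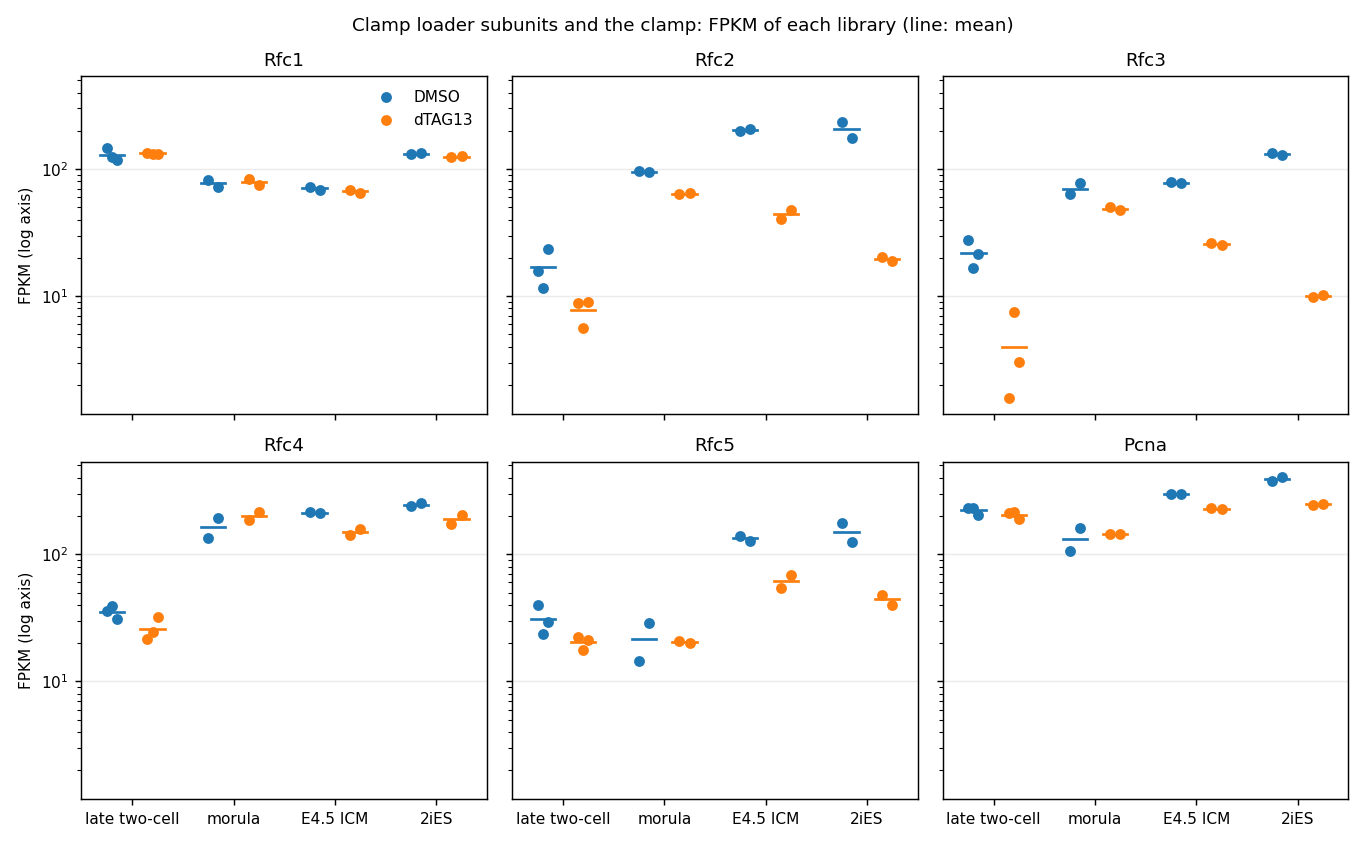
FPKM of every library (points; log y axis) with its group mean (line) for the 5 RFC subunits and *Pcna* at 4 stages (x axis), DMSO in blue and dTAG13 in orange. *Rfc2* and *Rfc3* separate most in 2iES cells (means of 206 against 19.7 FPKM and 132 against 10.1 FPKM), and the *Rfc1* groups overlap at the late two-cell stage, in morulae and in ICM.

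Replication protein A fell in ICM and 2iES cells in all 3 subunits. *Rpa2* went from 139 ± 3.46 (SD, n = 2) to 61.3 ± 1.61 (SD, n = 2) FPKM in ICM (log2 fold change -1.24 ± 0.035 (SE), adjusted p = 8.75e-28) and from 193 ± 20.4 (SD, n = 2) to 85.0 ± 1.37 (SD, n = 2) FPKM in 2iES cells (log2 fold change -1.23 ± 0.12 (SE), adjusted p = 0.000290). *Rpa3*, the smallest subunit, was at -1.13 and -0.74, and *Rpa1*, the main binding subunit, at -0.40 and -0.41. The treated late two-cell libraries of *Rpa2* all lay below the controls (237, 242 and 239 FPKM with DMSO and 212, 215 and 213 FPKM with dTAG13) by a small margin that missed the threshold (-0.23, adjusted p = 0.102).

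*Lig1*, the ligase that seals lagging-strand pieces, fell in ICM (116 and 120.4 FPKM with DMSO and 55.8 and 59.9 FPKM with dTAG13; log2 fold change -1.10 ± 0.039 (SE), adjusted p = 1.27e-24) and 2iES cells (231 and 214 FPKM with DMSO and 98.8 and 91.0 FPKM with dTAG13; log2 fold change -1.26 ± 0.11 (SE), adjusted p = 0.000196). *Fen1*, the flap nuclease, was the single member that passed in neither direction in ICM, at 59.0 and 60.3 FPKM with DMSO and 59.8 and 61.8 FPKM with dTAG13 (-0.05, adjusted p = 0.273). In 2iES cells it fell, with 20.2 and 17.4 FPKM with DMSO and 9.11 and 6.89 FPKM with dTAG13 (log2 fold change -1.27 ± 0.18 (SE), adjusted p = 0.00157). Of its 75-base stretches, 73.7% also occur in *Gm10143* or *Tmem258* on the opposite strand, and *Gm10143* was listed at a mean of at most 0.875 FPKM at the late two-cell stage, in ICM and in 2iES cells. *Gm10143* lies opposite 78.8% of the exonic bases of *Fen1* and *Tmem258* opposite 5.37%, and the level of *Tmem258* was not examined.

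Whether the effect itself differed between stages was tested in 1 fit of all 18 libraries. Between ICM and 2iES cells it differed for 10 members, 4 with a more negative change in ICM (9.93% of 21915 genes differed in that direction) and 6 with a more negative change in 2iES cells (7.42%), or 8.89% and 13.3% of the members. The first of these shares was near its background. *Orc1*, *Mcm2*, *Pola1* and *Pole* fell in ICM and did not pass in 2iES cells. *Cdc6*, *Pole3* and *Fen1* fell in 2iES cells and not in ICM, and *Gins4*, *Pold3* and *Rfc3* fell in both and further in 2iES cells. The difference was largest for *Rfc3*, at 2.04 ± 0.46 (SE, adjusted p = 0.00539), followed by *Cdc6*, at 1.27 ± 0.19 (SE, adjusted p = 0.000257). For *Rfc2* it was 1.05 ± 0.37 (SE, adjusted p = 0.0586) and missed the threshold. Leaving out 1 library at a time kept between 7 and 10 of these 10 calls. ICM was treated from 84 to 100 h with 1 μM dTAG13 and 2iES cells for 24 h with 0.5 μM, and the cells, the dose and the time cannot be told apart.

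**Figure D4:**
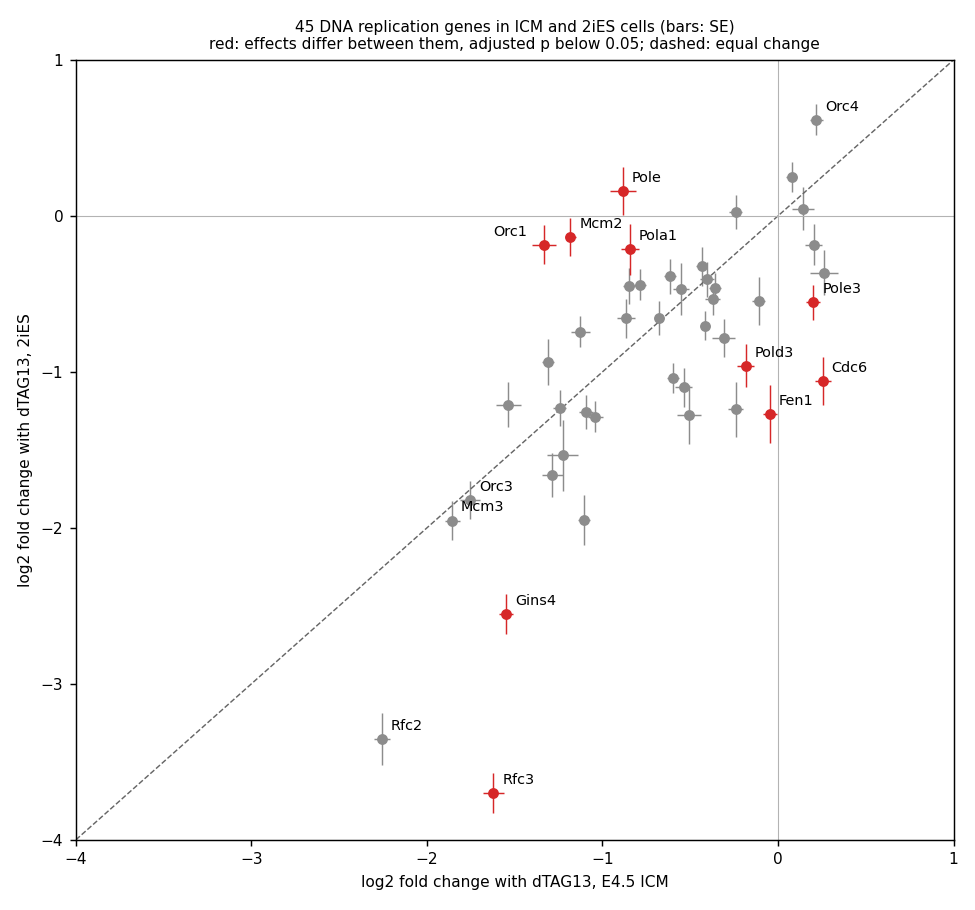
Log2 fold change with dTAG13 of the 45 members in E4.5 ICM (x axis) and 2iES cells (y axis), bars are SE, the dashed line marks equal change and red points differ between the 2 by the interaction test. *Rfc3* (-1.62 and -3.70) and *Gins4* lie below the line, *Orc1* and *Mcm2* above it.

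Between the late two-cell stage and ICM the effect differed for 18 members. In 16 the change was more negative in ICM (9.87% of genes differed that way), and in 2, *Orc4* and *Gins3*, it was more negative at the late two-cell stage (10.4%). The 16 include *Gins2* (0.13 in late two-cell embryos and -1.04 in ICM), *Mcm2* (-0.08 and -1.18), *Orc1* (-0.23 and -1.33) and *Cdc45* (-0.21 and -1.29). *Orc3* and *Rfc3* were not among them. The count ran from 11 (without ICM dTAG13 replicate 1) to 19 when 1 library was left out.

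Genes that work beside the 45 were counted from 6 lists of neighbouring pathways. Their counts are read against the shares of all genes, which were 7.24% lower and 1.32% higher in late two-cell embryos, 38.5% and 38.4% in ICM, and 28.1% and 26.5% in 2iES cells. Of 11 genes of origin firing and the replication checkpoint, 2 were lower at the late two-cell stage, 9 lower and 2 higher in ICM, and 4 lower and 2 higher in 2iES cells, where the share lower (36.4%) was close to the background. *Topbp1* (-0.57, -1.19 and -0.70) and *Mtbp* (-1.28, -1.11 and -1.56), both needed to recruit CDC45, fell at all 3 stages, while *Cdc7*, the kinase that DBF4 activates, fell in ICM (-0.67) and was at 0.22 in 2iES cells (adjusted p = 0.279). *Atr*, the checkpoint kinase, was higher in 2iES cells (log2 fold change 1.76 ± 0.20 (SE), adjusted p = 0.000542). Of 15 alternative loaders and fork factors, 1 was lower at the late two-cell stage, 10 lower and 3 higher in ICM, and 8 lower and 2 higher in 2iES cells. *Rnaseh2b*, a subunit of the nuclease that removes ribonucleotides from DNA, went from 126 to 5.65 FPKM in 2iES cells (log2 fold change -4.60 ± 0.21 (SE), adjusted p = 2.79e-05) and fell in late two-cell embryos (-4.06) and in ICM (-3.73). *Dscc1*, of the CHTF18 loader, fell in ICM (-2.01) and 2iES cells (log2 fold change -4.18 ± 0.19 (SE), adjusted p = 2.93e-05), and *Atad5* rose in both (0.37 and 0.72).

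Of 9 genes of nucleotide supply, 3 were lower at the late two-cell stage, 6 lower and 2 higher in ICM, and 6 lower and 1 higher in 2iES cells. *Dtymk*, the thymidylate kinase, fell from 476 to 45.4 FPKM in ICM (log2 fold change -3.43 ± 0.039 (SE), adjusted p = 1.27e-40), and with *Tyms*, thymidylate synthase (-2.18, -2.26 and -3.31), at all 3 stages. The ribonucleotide reductase subunits *Rrm1* and *Rrm2* were higher in ICM (0.25 and 0.32). Of 7 chromatin assembly genes, 1 was lower at the late two-cell stage (*Hat1*), 7 in ICM and 4 in 2iES cells, with *Chaf1b* falling the most (-1.68 in ICM and -2.30 in 2iES cells). Of 13 E2F and pocket protein genes, 12 were tested at the late two-cell stage and none passed, 5 were lower and 4 higher in ICM, and 6 were lower and 2 higher in 2iES cells. In ICM these shares (38.5% and 30.8%) were near the background, so the counts say nothing particular of this list there. *E2f4*, whose product mostly represses S-phase genes in resting cells, went from 71.0 to 3.60 FPKM in ICM (-4.32) and from 86.1 to 2.63 FPKM in 2iES cells (-5.33), and the pocket protein genes *Rb1* and *Rbl2* were higher in 2iES cells (3.41 and 2.86). Of 12 mitosis genes, none passed at the late two-cell stage, 9 were lower and 2 higher in ICM, and 7 were lower and 3 higher in 2iES cells. In morulae no gene of the 6 lists passed. The median log2 fold changes of the lists in ICM and 2iES cells were -0.29 and -0.08 for origin firing, -0.71 and -0.73 for the alternative loaders and fork factors, -0.36 and -0.52 for nucleotide supply, -0.55 and -0.80 for chromatin assembly, -0.07 and -0.64 for E2F and pocket proteins, and -0.48 and -0.53 for mitosis, against medians of 0.01 and 0.03 over all genes.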

How the data were processed

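RNA was amplified with SMART-Seq v4, made into Nextera XT libraries, which do not keep strand, and read paired-end. The authors trimmed reads with Trimmomatic 0.39, aligned them with STAR to GRCm38 and quantified genes with RSEM, and for each library deposited the expected count, TPM and FPKM of 55385 genes. The deposited expected counts sum to 9457933 to 27660132 per library. RSEM shares reads between genes with common sequence by estimate.

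Expected counts were rounded and compared per stage, dTAG13 against DMSO, with edgeR 4.0.16 (R 4.3.3; quasi-likelihood test, TMM factors, genes kept at 10 or more counts in a number of libraries no lower than the smaller group's size) and Benjamini-Hochberg adjustment over all genes tested. The authors' deposited FPKM values gave levels and the deposited TPM values the limma 3.58.1 alternative, on log2(TPM + 1). Other alternatives were RLE and upper-quartile factors, library totals, no count filter, DESeq2 1.42.0, a fit of all 18 libraries, a replicate block and leaving out each library. DMSO libraries were compared between stages in 1 fit, and effects between stages by interaction terms in a fit of all 18 libraries. The scripts were tested on simulated data and figures were drawn with matplotlib 3.10.9. Genes named with full statistics were, at each stage, the 3 largest falls and the 3 largest rises among members past the threshold whose mean reached 1 FPKM in a group, plus *Gabpa*, and other members were named where their role is described. The members and lists were chosen with earlier results of these data known. Identifiers were matched to GENCODE M21.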

Additional observations from a re-analysis of the deposited data

Results flagged for a closer look

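The effect of dTAG13 on 10 members differed between ICM and 2iES cells by the interaction test (edgeR's quasi-likelihood test, adjusted over all genes). The 4 with the more negative change in ICM were 8.89% of members against 9.93% of genes, near the background. The 6 with the more negative change in 2iES cells were 13.3% against 7.42%. As the ICM change minus the 2iES change on the log2 scale, the difference was -1.20 ± 0.24 (SE, adjusted p = 0.00212) for *Orc1*, -1.09 ± 0.20 (SE, adjusted p = 0.00131) for *Mcm2*, -1.08 ± 0.26 (SE, adjusted p = 0.00865) for *Pole* and -0.67 ± 0.21 (SE, adjusted p = 0.0381) for *Pola1*, the members with the more negative change in ICM. Those with the more negative change in 2iES cells were *Rfc3* at 2.04 ± 0.46 (SE, adjusted p = 0.00539), *Cdc6* at 1.27 ± 0.19 (SE, adjusted p = 0.000257), *Fen1* at 1.18 ± 0.30 (SE, adjusted p = 0.0106), *Gins4* at 0.96 ± 0.20 (SE, adjusted p = 0.00369), *Pold3* at 0.73 ± 0.23 (SE, adjusted p = 0.0372) and *Pole3* at 0.71 ± 0.16 (SE, adjusted p = 0.00469). The call for *Pola1* was kept in 5 of the 14 fits that left out 1 library, and that for *Pold3* in 7.

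Between the late two-cell stage and ICM the effect differed for 18 members, given as the late two-cell change minus the ICM change on the log2 scale. In 16 the change was more negative in ICM, or 35.6% of members against 9.87% of genes. In 2 it was more negative at the late two-cell stage, or 4.44% against 10.4%. *Orc4* was at -0.80 ± 0.26 (SE, adjusted p = 0.0381) and *Gins3* at -0.81 ± 0.24 (SE, adjusted p = 0.0235), with the more negative change at the late two-cell stage. The helicase subunits were at 1.08 ± 0.19 (SE, adjusted p = 0.000590) for *Mcm2*, 0.55 ± 0.17 (SE, adjusted p = 0.0329) for *Mcm3*, 0.59 ± 0.14 (SE, adjusted p = 0.00765) for *Mcm6* and 0.91 ± 0.22 (SE, adjusted p = 0.00739) for *Mcm7*. Factors that activate the helicase were at 1.05 ± 0.21 (SE, adjusted p = 0.00210) for *Cdc45*, 0.71 ± 0.21 (SE, adjusted p = 0.0246) for *Gins1*, 1.15 ± 0.23 (SE, adjusted p = 0.00178) for *Gins2*, 0.89 ± 0.19 (SE, adjusted p = 0.00278) for *Gins4* and 0.77 ± 0.16 (SE, adjusted p = 0.00228) for *Dbf4*. The others were *Orc1* at 1.08 ± 0.22 (SE, adjusted p = 0.00193), *Gmnn* at 0.57 ± 0.14 (SE, adjusted p = 0.00708), *Prim2* at 0.75 ± 0.22 (SE, adjusted p = 0.0217), *Pole* at 0.85 ± 0.24 (SE, adjusted p = 0.0181), *Rfc2* at 1.22 ± 0.34 (SE, adjusted p = 0.0178), *Rpa2* at 0.99 ± 0.16 (SE, adjusted p = 0.000353) and *Rpa3* at 0.56 ± 0.19 (SE, adjusted p = 0.0480). The call for *Orc4* was kept in 3 of the 14 fits that left out 1 library, and that for *Rpa3* in 5.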

How the results depend on the processing

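Over 2206 comparisons of single members with an alternative, 2039 kept direction and threshold, 165 lost the threshold and 2 reversed, *Cdt1* (0.016) and *Pold3* (0.046) in ICM with limma on log2(TPM + 1); the cause was not tested. The 8 members lower at the late two-cell stage became 13 without the count filter, 14 with DESeq2, 17 with all 18 libraries and 3 with the 2-fold rule. In morulae, 1 member was lower with upper-quartile factors, library totals, no count filter, DESeq2, all 18 libraries or the replicate block, and 1 was higher with no filter or the block and 3 with all 18 libraries. Leaving out 1 morula library gave 0 to 1 lower and 0 to 4 higher, both maxima without DMSO replicate 2. In ICM the 2-fold rule left 16 lower and 0 higher, DESeq2 4 higher and all 18 libraries 0 higher. In 2iES cells the 2-fold rule left 18 lower and 0 higher, while 2 were higher with upper-quartile factors, library totals or limma and 0 to 2 when 1 library was left out. Between control stages, upper-quartile factors gave 10 higher for ICM against morula and 1 lower for 2iES against ICM, where library totals gave 6 lower and 3 higher. The members whose effect differed between the late two-cell stage and ICM numbered 11 to 19 when 1 library was left out. Upper-quartile factors moved the median of all genes to 0.14, 0.11 and 0.21 at the late two-cell stage, in ICM and in 2iES cells.

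Same-numbered libraries deviated together with r of 0.056 to 0.12 at the late two-cell stage, 0.030 in morulae, -0.046 in ICM and -0.24 in 2iES cells, so the numbers were not taken as pairs. With a replicate block 12, 37 and 33 members were lower at the late two-cell stage, in ICM and in 2iES cells. A crossed block for 2iES cells, chosen after seeing the data, gave 34 lower and 1 higher. The morula libraries were the shallowest, and the change of *Mcm3* there (-1.01, adjusted p = 0.0557 by edgeR) missed the threshold; the part of depth and library number was not tested.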
